A study of Homo sapiens with 6 samples.

Results

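The EGF family ligands and the ERBB receptors were 10 of the 58676 genes measured by RNA sequencing in DCIS.COM cells, 7 ligand genes (AREG, EREG, EPGN, BTC, TGFA, HBEGF and EGF) and 3 receptor genes (EGFR, ERBB2 and ERBB3). They were picked by gene name, and the picking was done with AREG already known to be higher after BCL9 knockdown in these same samples, so their differences between the groups are a description. Whether each passed the threshold of the fit across all genes is stated, but that is no evidence apart from the picking, and no p-value is given for them. DCIS.COM, an established human cell line, is basal in type and serves as a model of ductal carcinoma in situ. Cells of the NS control group carried the lentiviral vector PLKO.1 with a non-silencing shRNA, and cells of the BCL9 KD group carried PLKO.1 with an shRNA against BCL9, a coactivator of β-catenin. Each group had 3 samples, each from its own flask in the same medium with 5% horse serum, and only 1 BCL9 shRNA was used, so that an effect of the shRNA other than on BCL9 cannot be told apart from the knockdown.

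EGF family ligands are made as membrane-anchored precursors that metalloproteases cut free, and they bind ERBB receptor tyrosine kinases on the same or on neighbouring cells. AREG, EPGN, TGFA and EGF bind EGFR, while EREG, BTC and HBEGF bind EGFR and ERBB4. ERBB2 binds none of these ligands and acts as a partner of the other receptors, and ERBB3 binds neuregulins and has a weak kinase. In the mammary gland AREG is the ligand that carries the estrogen signal for duct growth.

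AREG, EREG, EPGN and BTC are neighbours on chromosome 4, within 486.2 kb from the start of EPGN to the end of BTC. In build GRCh38 the deposited table places EPGN (ENSG00000182585) at chr4:74308473-74315307, EREG (ENSG00000124882) at chr4:74365143-74388751 and AREG (ENSG00000109321) at chr4:74445134-74455009, all on the plus strand, and BTC (ENSG00000174808) at chr4:74744759-74794686 on the minus strand. The gap is 49.8 kb between EPGN and EREG, 56.4 kb between EREG and AREG and 289.8 kb between AREG and BTC. The other members lie elsewhere: EGF (ENSG00000138798) at chr4:109912884-110012266, TGFA (ENSG00000163235) at chr2:70447280-70554193, HBEGF (ENSG00000113070) at chr5:140332843-140346631, EGFR (ENSG00000146648) at chr7:55019021-55256620, ERBB2 (ENSG00000141736) at chr17:39687914-39730426 and ERBB3 (ENSG00000065361) at chr12:56079857-56103505.

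The promoters of the 3 plus-strand neighbours are shown because their genes lie side by side and had higher values together after BCL9 knockdown. Each line holds the 150 bases before the RefSeq start (GRCh38.p14), and capitals mark TATAAA, the letters of a TATA box, and TGACG, the core of a cyclic AMP response element, which in AREG is part of the full element TGACGTCA.
EPGN, chr4:74308320-74308469, plus strand: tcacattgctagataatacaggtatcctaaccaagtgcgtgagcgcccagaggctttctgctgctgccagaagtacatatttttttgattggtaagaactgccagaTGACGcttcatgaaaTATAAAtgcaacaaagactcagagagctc
EREG, chr4:74364995-74365144, plus strand: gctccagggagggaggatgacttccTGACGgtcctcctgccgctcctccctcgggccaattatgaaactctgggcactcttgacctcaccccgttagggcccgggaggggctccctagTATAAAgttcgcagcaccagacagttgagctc
AREG, chr4:74444986-74445135, plus strand: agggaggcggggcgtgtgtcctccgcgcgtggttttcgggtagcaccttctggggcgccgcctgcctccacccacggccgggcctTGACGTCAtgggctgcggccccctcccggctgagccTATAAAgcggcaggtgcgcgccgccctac
TATAAA began 29 bases before the start in EPGN, 32 in EREG and 29 in AREG. TGACG began 44 bases before the start in EPGN, 125 in EREG and 65 in AREG. In windows from 250 bases before to 50 bases after the start, read on both strands, TATAAA was found in 11.5% of 35116 RefSeq promoters, TGACG in 24.6% and TGACGTCA in 1.85%. Of the 9 members with a RefSeq promoter (EGFR and TGFA have several each), TATAAA was present in AREG, EREG, EPGN and EGFR, TGACG in AREG, EREG, EPGN and TGFA, and TGACGTCA in AREG. The AP-1 letters TGANTCA, in 7.71% of all promoters, were present in EGF, EGFR and ERBB2. The GC box GGGCGG, in 45.0% of all promoters, was present in AREG, BTC, TGFA, HBEGF and EGFR, and the NF-kappaB letters GGGNN followed by TTTCC, in 1.91%, in BTC. CTTTGAT, the letters of a TCF/LEF site, and TTCNNNGAA, those of a STAT site, were in 2.62% and 7.66% of all promoters and in none of the windows of these 9 genes. These are matches of letters in short windows and were not tested for binding.

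Depth ran from 15222452 to 22712638 reads counted on genes in NS control and from 15665714 to 26949026 in BCL9 KD. NS control replicate 1 stood apart. Among the 2716 tested genes with the lowest GC content of their transcripts (26.8% to 41.5%), its median log2 deviation from the mean of the 6 samples was -0.44, against -0.05 and 0.14 in the other NS control samples and 0.09 to 0.16 in BCL9 KD. EREG (38.1% GC), BTC (38.8%) and EPGN (40.8%) fall in that range and AREG (41.9%) just above it, so each change of a ligand or receptor is given also without NS control replicate 1 and with a correction for GC content. Basal markers were strongly expressed, with KRT5 between 379.0 and 435.9 FPKM and KRT17 between 529.4 and 649.6 FPKM, and PGR was listed at 0 in all 6 samples. The summed FPKM of 4 pan-epithelial genes was 577.5 to 687.7 in NS control and 530.1 to 559.9 in BCL9 KD. FPKM is the reads on a gene per kilobase of its length and scaled to the reads counted in the sample, so that levels of different genes can be set side by side. Among markers of other cells, the summed FPKM of 4 endothelial genes was 1.80 to 2.42 in NS control and 3.22 to 4.06 in BCL9 KD, nearly all of it PECAM1, with CDH5 and VWF at or near 0. The summed FPKM of 5 blood cell genes was 0.294 to 0.56 in NS control and 0.778 to 1.38 in BCL9 KD, nearly all of it CD14, with HBB at 0 in all 6 samples. The part of these differences in the results below was not tested.

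BCL9 (ENSG00000116128, chr1:147541412-147626216), the target of the shRNA, was at 6.25, 6.24 and 5.34 FPKM in NS control and at 2.86, 2.78 and 2.59 FPKM in BCL9 KD. Its transcript fell by 0.99 on the log2 scale (SE 0.0933, limma adjusted p = 0.00773), and the exact two-sided permutation test gave p = 0.1, the smallest it can give for 3 against 3. Changes here and below are differences of the mean log2(FPKM + 0.5), BCL9 KD minus NS control, which understate the change of low genes. In RNA from whole cultures, fewer cells that express a gene and less of its RNA per cell cannot be told apart.

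Of the ligands, AREG had the largest difference. It was at 29.8, 28.3 and 33.2 FPKM in NS control (mean 30.4 ± 2.52, SD, n = 3) and at 63.3, 77.5 and 80.4 FPKM in BCL9 KD (73.7 ± 9.12, n = 3). Every BCL9 KD sample lay far above every NS control sample. The log2 difference was 1.26 (SE 0.111), rank 49 from the top among 13745 tested genes, 1.18 with the GC correction and 1.24 without NS control replicate 1.

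HBEGF (heparin-binding EGF-like growth factor) was also called higher. It was at 13.6, 12.3 and 12.2 FPKM in NS control (12.7 ± 0.795) and at 22.8, 25.7 and 25.2 FPKM in BCL9 KD (24.6 ± 1.54). Its groups were tight and well apart, although it lies on another chromosome than AREG. The log2 difference was 0.92 (SE 0.0803), 0.98 with the GC correction and 0.97 without NS control replicate 1.

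EREG (epiregulin) was at 20.6, 27.6 and 28.8 FPKM in NS control (25.6 ± 4.43) and at 47.0, 43.6 and 46.1 FPKM in BCL9 KD (45.6 ± 1.75). The spread in NS control came from replicate 1, which was the lowest of the 6, and the groups stayed apart without it. The log2 difference was 0.83 (SE 0.129), 0.61 with the GC correction and 0.68 without that sample. It no longer passed the threshold when no filter on low values was used.

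BTC (betacellulin) was far lower, at 0.563, 1.32 and 1.00 FPKM in NS control (0.961 ± 0.379) and at 2.07, 1.99 and 1.90 FPKM in BCL9 KD (1.99 ± 0.0827). These levels rest on 36, 75 and 43 reads in NS control and on 103, 151 and 84 reads in BCL9 KD. The log2 difference was 0.80 (SE 0.201) and did not pass the limma threshold, an adjusted p-value under 0.05 over all tested genes. It was 0.60 with the GC correction, which passed, and 0.59 without NS control replicate 1, which did not. It also passed with quantile normalization, at 0.73, and by limma-voom on the reads recovered from the FPKM, at 1.11, but in no other alternative. The 0.5 FPKM added before taking logs shrinks a gene this low, and with 0.1 FPKM added the difference was 1.04, above the 0.95 of HBEGF on that scale.

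EPGN (epigen) was at 3.11, 5.12 and 5.36 FPKM in NS control (4.53 ± 1.24) and at 6.46, 6.40 and 7.11 FPKM in BCL9 KD (6.66 ± 0.393). The groups did not overlap, but NS control replicate 1 sat well below the other NS control samples and set much of the difference. The log2 difference of 0.54 (SE 0.186) did not pass the threshold, and it was 0.41 with the GC correction and 0.32 without that sample.

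TGFA, the ligand with the highest level in NS control, went the other way. It was at 46.7, 46.0 and 40.3 FPKM in NS control (44.4 ± 3.50) and at 34.9, 32.4 and 34.8 FPKM in BCL9 KD (34.0 ± 1.42). All BCL9 KD samples were below all NS control samples, with a gap smaller than for AREG, EREG or HBEGF. The log2 difference was -0.38 (SE 0.0804) and passed the threshold, as did the -0.30 with the GC correction. It was -0.34 and no longer passed without NS control replicate 1, and leaving out any sample but NS control replicate 3 ended the call.

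EGF itself was close to absent in both groups, at 0.0719, 0.0484 and 0.0751 FPKM in NS control and at 0.0831, 0.0787 and 0.0833 FPKM in BCL9 KD. That is 10, 6 and 7 reads against 9, 13 and 8 reads. The FPKM values did not overlap between the groups, but they rest on too few reads for a difference to be read from them. With a mean under 0.5 FPKM, EGF was not tested.

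**Figure D1:**
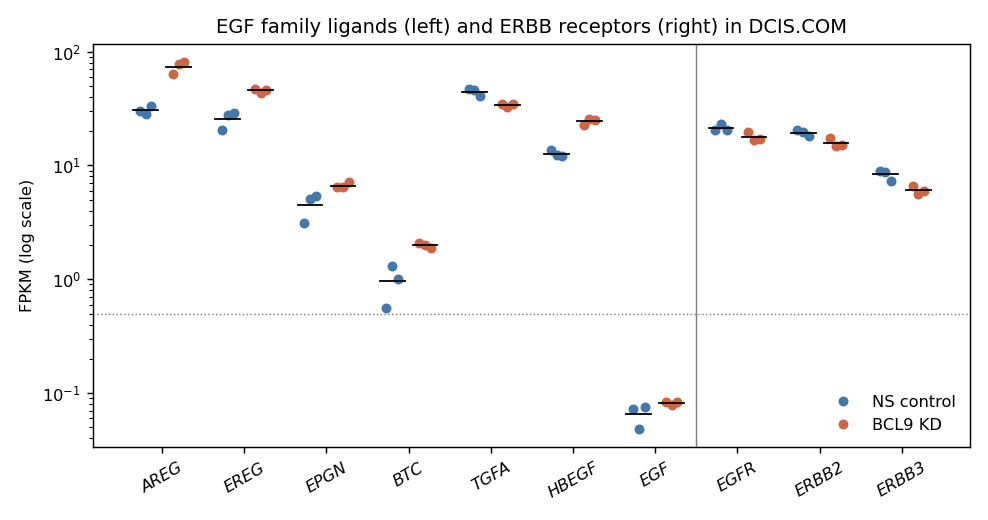
FPKM (log axis) of the 7 ligands and 3 receptors in each of the 6 samples, with a bar at each group mean and a dotted line at the 0.5 FPKM filter on the mean of the 6 samples. AREG, EREG and HBEGF show BCL9 KD samples clear above NS control samples, TGFA and the receptors show them a little below, and EGF lies under 0.1 FPKM in all samples.

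The receptors had lower values in BCL9 KD, by less than AREG, EREG and HBEGF rose. EGFR, the receptor of all 7 ligands, was at 20.4, 23.3 and 20.4 FPKM in NS control (21.4 ± 1.64) and at 19.6, 16.7 and 17.0 FPKM in BCL9 KD (17.8 ± 1.60). The lowest NS control sample and the highest BCL9 KD sample were close to each other. The log2 difference of -0.26 (SE 0.0923) did not pass the threshold, and it was -0.19 with the GC correction and -0.29 without NS control replicate 1.

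ERBB2 was at 20.6, 19.5 and 18.0 FPKM in NS control (19.4 ± 1.35) and at 17.3, 14.9 and 15.1 FPKM in BCL9 KD (15.8 ± 1.33). The groups nearly met, and the log2 difference of -0.29 (SE 0.0889) did not pass the threshold. ERBB2 overlaps MIEN1 (mean 3.88 FPKM in NS control, 5.12 in BCL9 KD) and PGAP3 (3.29 and 2.81) on the opposite strand, and the strand setting of the counting was not given, so that reads in the overlap may belong to either gene. The difference was -0.21 with the GC correction and -0.24 without NS control replicate 1.

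ERBB3 was at 8.97, 8.77 and 7.31 FPKM in NS control (8.35 ± 0.906) and at 6.55, 5.61 and 5.91 FPKM in BCL9 KD (6.02 ± 0.480). Its log2 difference of -0.44 (SE 0.104) was the largest of the receptors and just missed the threshold, which it passed with the GC correction at -0.36 and missed without NS control replicate 1 at -0.39.

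In all, 9 of the 10 genes passed the filter on low values and could be tested. Of these, AREG, EREG and HBEGF were called higher in BCL9 KD, where 2.96% of all tested genes were, TGFA was called lower, where 2.91% were, and 5 were not called. Without NS control replicate 2, BCL9 KD replicate 2 or BCL9 KD replicate 3, none of the 9 was called in either direction, with AREG between 1.19 and 1.36, EREG between 0.68 and 0.92 and HBEGF between 0.89 and 0.98 over the 6 fits that each left out a sample. The groups did not overlap in any of the 9, with BCL9 KD higher in 5, against 17.8% of all tested genes, and lower in 4, against 16.4%. Because the genes were picked with this comparison known, nothing is read from these counts. The median log2 difference was 0.82 over the 6 tested ligands (0.60 with the GC correction) and -0.29 over the 3 receptors (-0.21), beside 0.04 over all tested genes. Limma called 0 of the 3 receptors. At an unadjusted p under 0.05, 3 were lower, where 13.0% of all tested genes were. Limma-voom on the reads recovered from the FPKM called 1 lower, where 4.94% were. Nothing is read from these receptor counts either, since the receptors were picked with the comparison known.

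**Figure D2:**
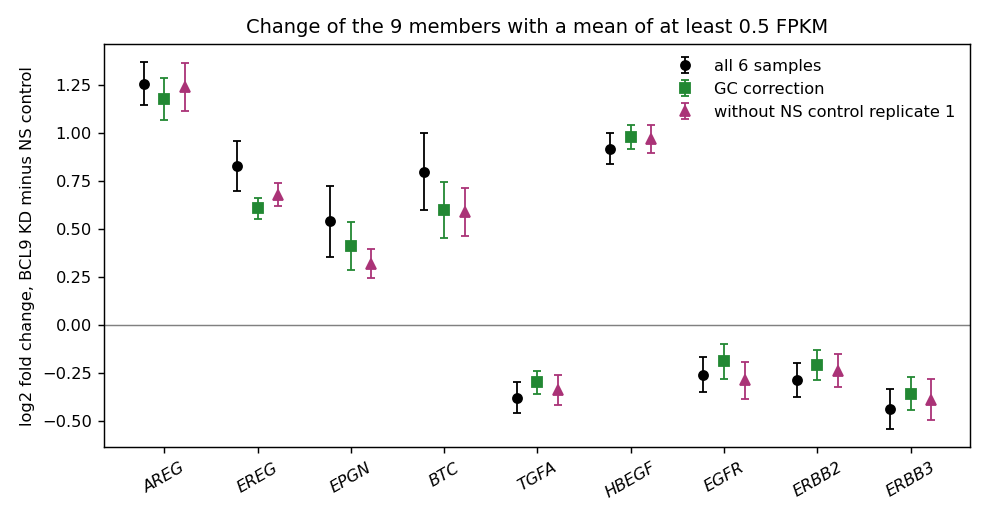
Difference of mean log2(FPKM + 0.5), BCL9 KD minus NS control, with its SE, for the 9 tested members in all 6 samples, with the GC correction and without NS control replicate 1. All 3 versions lie on the same side of 0 for every gene. All but HBEGF and EGFR move towards 0 under both alternatives, EPGN, BTC and EREG by the most.

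The makeup of the ligand transcripts changed with these differences. TGFA led in NS control, followed by AREG and EREG, whose ranges overlapped, and then by HBEGF, EPGN, BTC and EGF, each with a range apart from its neighbour. In BCL9 KD the order was AREG, EREG, TGFA, HBEGF, EPGN, BTC and EGF, with no overlap of neighbours. TGFA made 40.8%, 38.1% and 33.3% of the summed ligand FPKM in the NS control samples and 19.7%, 17.3% and 17.8% in the BCL9 KD samples. AREG made 26.0%, 23.5% and 27.5% in NS control and 35.9%, 41.3% and 41.1% in BCL9 KD. The share of EREG overlapped between the groups, at 18.0%, 22.8% and 23.8% against 26.6%, 23.2% and 23.6%, and that of HBEGF was 10.1% to 11.9% against 12.9% to 13.7%.

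**Figure D3:**
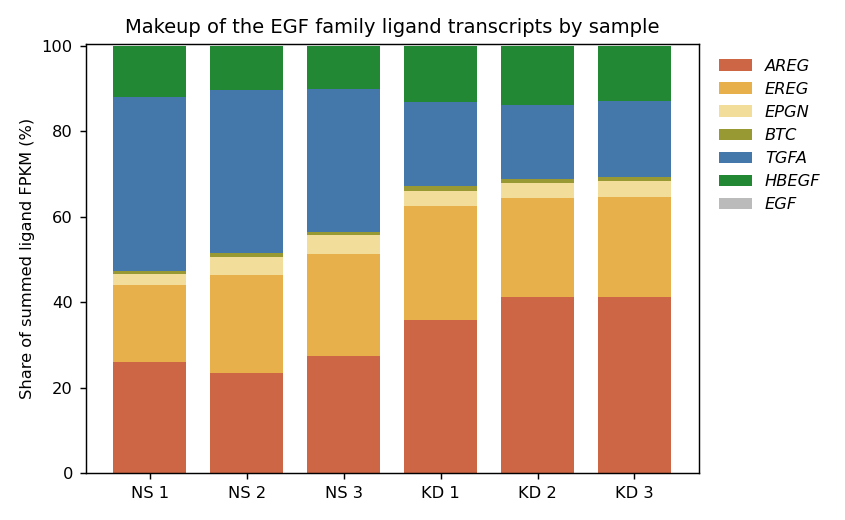
Share of each ligand in the summed FPKM of the 7 ligands (%, stacked to 100) for each sample. TGFA is the widest band in the 3 NS control samples and AREG in the 3 BCL9 KD samples, and EGF is too low to be seen.

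The summed FPKM of the 7 ligands was 114.4, 120.8 and 120.9 in NS control and 176.7, 187.7 and 195.6 in BCL9 KD. That of the 3 receptors was 50.0, 51.5 and 45.7 in NS control and 43.5, 37.2 and 38.1 in BCL9 KD. The ratio of AREG to TGFA FPKM went from 0.637, 0.616 and 0.824 to 1.82, 2.39 and 2.31, so that the order of the pair differed between the groups in every sample. The ratio of AREG to EGFR FPKM was 1.46, 1.22 and 1.63 in NS control and 3.23, 4.65 and 4.72 in BCL9 KD. EGFR and ERBB2 had overlapping ranges in both groups, and ERBB3 was below both.

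Across the 6 samples, which fall into the 2 groups, the log2 values of HBEGF had a Pearson correlation of 0.983 with those of AREG, and rank 79 among all tested genes. For EREG it was 0.925, for BTC 0.836 and for EPGN 0.78. The receptors and TGFA ran opposite to AREG, with -0.895 for EGFR, -0.927 for ERBB2, -0.952 for ERBB3 and -0.954 for TGFA. The 5 tested genes most like AREG were METTL17 and TMSB4X (both 0.999), RAB28 (0.998), and S100A4 and ADGRG7 (both 0.997). TMSB4X, which encodes an actin-binding peptide, had a mean of 163.5 FPKM in NS control and 371.2 FPKM in BCL9 KD. With 6 points in 2 groups, these values mostly restate the difference between the groups.

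Around AREG, 41 genes of the table started within 1000000 bases of its start, 17 of them protein-coding, and 12 had a mean of at least 0.5 FPKM. All 12 had a log2 difference above 0, also with the GC correction, but the 4 ligands and the called chemokines among them were known to be higher when the window was chosen, so nothing is read from this count. Of the 8 that are no EGF family ligands, 3 were called higher, beside 2.96% of all tested genes, and 0 lower (also 0 lower at an unadjusted p under 0.05 and by limma-voom). Without NS control replicate 2, BCL9 KD replicate 2 or BCL9 KD replicate 3, the calls were 1, 1 and 0. The 3 called genes encode neutrophil-attracting chemokines. They were known to be higher when the window was chosen, so no p-value is given for them and nothing is read from their number. CXCL8 rose by 1.17 (SE 0.0805), from a mean of 12.8 FPKM to 29.4 FPKM. CXCL1 rose by 1.12 (SE 0.135), from 91.9 to 202.8 FPKM, and CXCL2 by 1.21 (SE 0.159), from 0.818 to 2.52 FPKM. With the GC correction the differences were 0.90 for CXCL8, 1.18 for CXCL1 and 1.29 for CXCL2. CXCL1, CXCL2 and CXCL3 are near-identical in parts, so the split of reads among them is uncertain.

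The other 5 did not pass the threshold. CXCL3 had a log2 difference of 0.82 (limma adjusted p = 0.0727), RASSF6 of 0.76 (0.13), the noncoding RP11-44F21.5 of 0.57 (0.118) and MTHFD2L of 0.51 (0.0988). PARM1, on the BTC side, was at a mean of 1.09 FPKM in NS control and 1.24 FPKM in BCL9 KD, a difference of 0.13 (limma adjusted p = 0.515). RASSF6, MTHFD2L and RP11-44F21.5 have low GC content (38.0%, 37.8% and 37.6%). With the GC correction their differences were 0.53, 0.28 and 0.34, of which that of MTHFD2L passed the threshold. Without NS control replicate 1 they were 0.46, 0.35 and 0.63, with none past it. CXCL3 passed with the GC correction, at 0.89. By limma-voom CXCL3, RASSF6 and MTHFD2L passed, at 1.76, 0.86 and 0.61, and without NS control replicate 3 RASSF6 and MTHFD2L did, at 1.03 and 0.65.

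**Figure D4:**
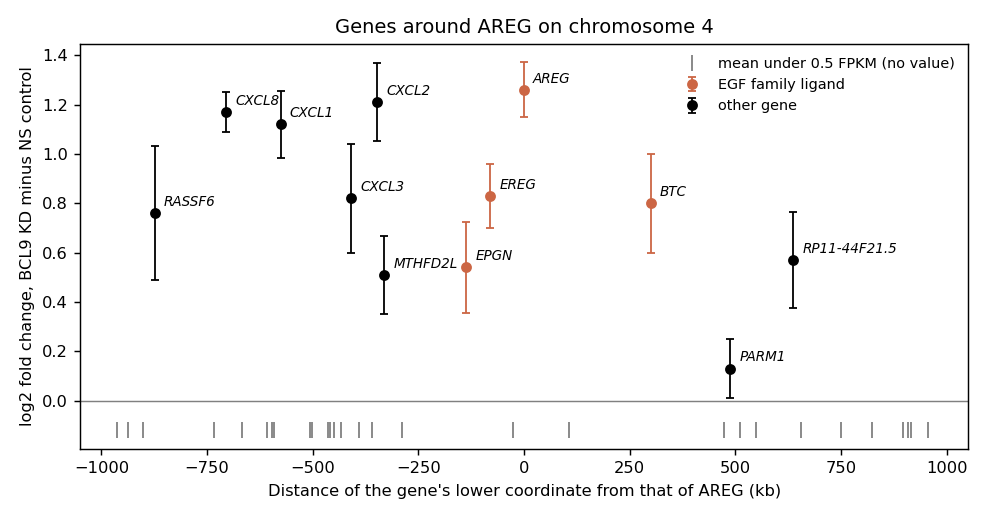
Log2 difference, BCL9 KD minus NS control, with its SE, against the distance in kb from the AREG start, for the 12 tested genes within 1000000 bases, the 4 ligands in colour. Ticks under the line mark genes with a mean under 0.5 FPKM, and all 12 points lie above 0.

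The rest of the pathway was read from lists of genes by role. Of the other EGF family members, ERBB4, the remaining receptor, was at a mean of 0.023 FPKM in NS control and 0.0314 FPKM in BCL9 KD, and NRG3 was at or close to 0. The 3 tested neuregulins NRG1, NRG2 and NRG4 had log2 differences of 0.04, -0.02 and 0.23, with 0 called by limma, by limma-voom or at an unadjusted p under 0.05 in either direction. NRG1, a ligand of ERBB3, was at 5.99 ± 0.365 FPKM in NS control and 6.18 ± 0.135 FPKM in BCL9 KD.

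Among 10 genes of ligand shedding, 0 were called higher and 2 lower, beside 2.96% and 2.91% of all tested genes. The median log2 difference was -0.01. At an unadjusted p under 0.05, 0 were higher and 2 lower, beside 14.5% and 13.0% of all tested genes. By limma-voom 0 were higher and 2 lower, beside 648 and 679 of the 13745 tested genes. ADAM17, the main sheddase of AREG, EREG, TGFA and HBEGF, was at 30.1, 32.2 and 31.0 FPKM in NS control and 32.4, 26.8 and 26.3 FPKM in BCL9 KD, and the groups overlapped. RHBDF2, which encodes the iRhom2 cofactor of ADAM17, fell by 0.42 (SE 0.0794, limma adjusted p = 0.0363), from 7.08 ± 0.450 to 5.16 ± 0.175 FPKM. ADAM12, a metalloprotease that can release HBEGF, fell by 0.54 (SE 0.0998, limma adjusted p = 0.0345), from 3.95 ± 0.272 to 2.56 ± 0.251 FPKM. ADAM10, the main sheddase of BTC and EGF, was at 8.43, 14.1 and 16.9 FPKM in NS control and 18.6, 17.8 and 18.7 FPKM in BCL9 KD, and its difference of 0.52 (limma adjusted p = 0.191) was 0.24 without NS control replicate 1.

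Of 21 tested adaptors and transducers, 1 was called lower and 0 were called higher, beside 2.91% and 2.96% of all tested genes. The median log2 difference was -0.02. At an unadjusted p under 0.05, 3 were lower and 1 higher, beside 13.0% and 14.5% of all tested genes. By limma-voom 1 was lower and 0 higher, beside 679 and 648 of the 13745 tested genes. GRB2, the adaptor that couples the receptors to RAS activation, was at 40.6 ± 3.51 FPKM in NS control and 37.8 ± 0.340 FPKM in BCL9 KD, a difference of -0.10 (limma adjusted p = 0.445). The list of genes that restrain or turn over the receptors held 17, such as the feedback inhibitor ERRFI1 and the ubiquitin ligase CBL. Limma called 0 of the 17 in either direction, with a median log2 difference of -0.08. At an unadjusted p under 0.05, 2 were higher and 5 lower, beside 14.5% and 13.0% of all tested genes. By limma-voom 1 was higher and 2 were lower, beside 648 and 679 of the 13745 tested genes. LRIG1, a membrane protein that promotes receptor breakdown, came closest, with a difference of -0.36 (limma adjusted p = 0.0526).

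Of 23 tested transcripts known to be induced early by EGFR signalling, 3 were called higher, where 2.96% of all tested genes were, and 0 lower. The median log2 difference was 0.08. At an unadjusted p under 0.05, 7 were higher and 2 lower, beside 14.5% and 13.0% of all tested genes. By limma-voom 3 were higher and 0 lower, beside 648 and 679 of the 13745 tested genes. EGR3, an immediate early transcription factor, was at 8.79, 8.22 and 8.38 FPKM in NS control and 13.8, 12.8 and 13.0 FPKM in BCL9 KD, and rose by 0.61 (SE 0.0699, limma adjusted p = 0.0117). FOS, a subunit of AP-1, rose by 0.76 (SE 0.127, limma adjusted p = 0.029), from 1.82 ± 0.341 to 3.40 ± 0.0403 FPKM. PHLDA1 rose by 0.42 (SE 0.0795, limma adjusted p = 0.037), from 47.7 ± 3.93 to 63.8 ± 1.89 FPKM. Among genes of the list that were not called, EGR1 was at 51.2 ± 4.84 and 55.1 ± 2.02 FPKM, MYC at 53.1 ± 1.56 and 54.9 ± 3.08 FPKM and DUSP4, a phosphatase of ERK, at 89.5 ± 5.15 and 77.0 ± 6.11 FPKM. With the GC correction 9 of the list were called higher, where 7.27% of all tested genes were, with DUSP6, SPRY1, JUNB, PLAUR, ETV4 and EGR1 added. With that correction and the replicate number as a block, 1 of the pathway genes was called higher. Without NS control replicate 2, BCL9 KD replicate 2 or BCL9 KD replicate 3, limma called 0 genes of the 5 pathway lists.

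**Figure D5:**
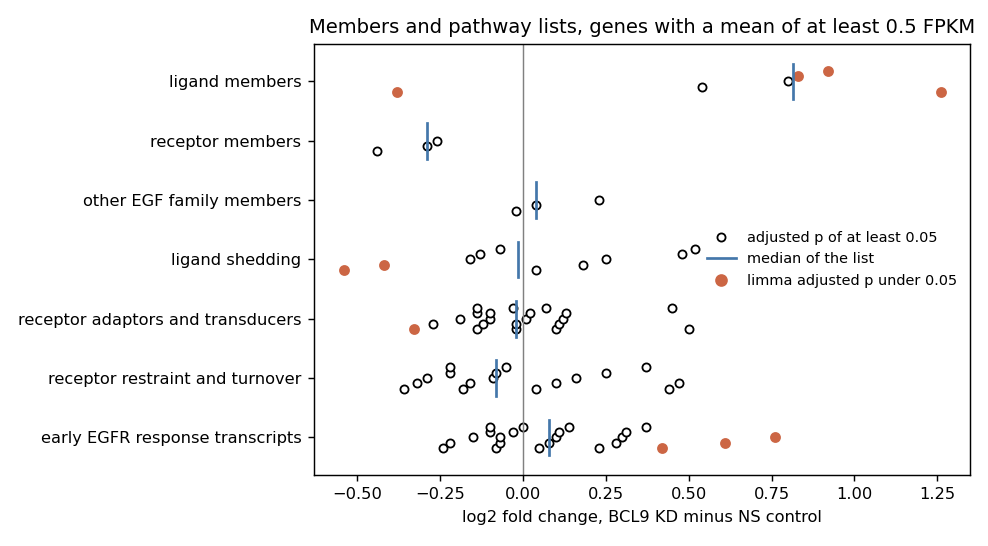
Log2 difference, BCL9 KD minus NS control, of each tested gene of the ligands, the receptors and the 5 pathway lists, with filled points for a limma adjusted p under 0.05 and a line at the median of each list. The ligands spread from -0.38 to 1.26 and the receptors lie between -0.44 and -0.26, while the medians of the 5 pathway lists lie between -0.08 and 0.08.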

How the data were processed

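RNA of 3 NS control and 3 BCL9 KD samples was sequenced, and samples were grouped by their labels. The authors deposited FPKM for 58676 genes, computed from the read count, the gene length and the reads counted. The gene length was deposited in bases beside the FPKM. The submitters' processing notes name CASAVA, STAR, HTSeq 0.6.1 and build hg38, and the study's methods also name Tophat and Cufflink and test with DESeq2. FPKM times gene length gave whole reads within 0.1 for 100% of values, hence the depths given. Counting error covers only part of the uncertainty, since reads carried no molecular identifiers.

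Genes with a mean of at least 0.5 FPKM (13745) were compared by limma 3.58.1 with trend (R 4.3.3) on log2(FPKM + 0.5), Benjamini-Hochberg adjusted, with a threshold of 0.05. P-values measure the spread between flasks of 1 cell line. Alternatives were an added 1 or 0.1 FPKM, a mean of at least 1 FPKM or no filter, median-of-ratios and quantile scaling, no trend, voom on the recovered reads, a replicate block, a GC correction (loess with span 0.3 on transcript GC, known for 98.8% of tested genes), both together, and leaving out each sample. Tables and plots were made with matplotlib 3.10.9, pandas 2.3.3, numpy 2.4.6 and scipy 1.17.1 in Python 3.11.15.

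The members, gene lists and tests were chosen with earlier results of these data known, and the 8 motifs with the members known. Genes named are all members, BCL9, called genes of each list, tested genes around AREG and the 5 most like AREG, apart from items not reported here. ADAM17, ADAM10, GRB2, ERBB4, NRG1 to NRG4, LRIG1, EGR1, MYC, DUSP4, ERRFI1, CBL, the cell type markers shown, the genes added by the GC correction and those overlapping ERBB2 fall outside this rule and were picked with their values in view. Promoters came from RefSeq (GRCh38.p14), with 9 of 10 members matched; protein sequences were not used here.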

Additional observations from a re-analysis of the deposited data

How the results depend on the processing

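All 153 values of the 9 tested members under 17 alternatives kept their direction. The calls did not all hold. Same-numbered samples had correlations of their deviations from the group means of -0.147, -0.0884 and -0.00287. Their mean was -0.0795, beside 0.0387 for the other pairs. With 3 samples in each group, these values cannot settle whether the labels' numbers pair the samples. With a replicate block, limma called 0 genes of all (807 without it, 3235 at an unadjusted p under 0.05 with it), and so 0 members, 0 pathway genes and 0 genes around AREG in either direction, and BCL9 was at -0.99 with an adjusted p of 0.0656. With the GC correction and the block, 211 genes were called higher and 109 lower. Of the members, 3 were called higher (AREG, EREG and HBEGF) and 0 lower. Of the pathway genes 1 was called higher and 0 lower, and 2 genes around AREG were called higher. With the GC correction alone, 999 genes were called higher and 753 lower, with 4 members higher and 2 lower. It called 9 pathway genes and 5 genes around AREG higher.

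Without a filter, 70 genes were called higher and 72 lower, with 2 members higher (EREG lost its call) and 0 lower, 1 pathway gene higher, 0 lower and 1 gene around AREG higher. Without the trend, 182 were called higher and 150 lower, with 0 members and 1 pathway gene lower. Median-of-ratios scaling called 0 members lower and a mean of at least 1 FPKM called 2. Voom called 648 genes higher and 679 lower, with 4 members higher and 2 lower, 5 pathway genes lower and 6 genes around AREG higher. Quantile normalization called 470 higher and 613 lower, with 4 members higher. The cause of these differences was not tested, apart from the number of genes tested in the filters (30731 without one, 11691 at 1 FPKM).

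Leaving out single samples moved BCL9 between -1.06 and -0.95, members called higher between 0 and 3 and lower between 0 and 2, pathway genes called higher between 0 and 5 and lower between 0 and 6, and genes around AREG called higher between 0 and 5. Without NS control replicate 2, BCL9 KD replicate 2 or BCL9 KD replicate 3, limma called 8, 7 and 2 genes higher and 4, 6 and 3 lower, and AREG, EREG, HBEGF and BCL9 lost their calls, with AREG between 1.19 and 1.36 over the 6 fits. Without NS control replicate 3, 908 genes were called higher and 804 lower. TGFA kept its call only without NS control replicate 3.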
